A study of Homo sapiens with 18 samples.

Results

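Translation factors are the proteins that load ribosomes onto messenger RNA, find the start codon and move the ribosome along the reading frame. They were taken as the protein-coding genes whose symbol begins with EIF (eukaryotic initiation factor) or EEF (eukaryotic elongation factor) followed by a digit from 1 to 6. Of 62649 gene IDs in the count tables, 233 had such a symbol, and 71 of these were protein-coding. The other 162 were mostly pseudogenes and non-coding transcripts. By factor, 15 genes belonged to EIF2 with its exchange factor and kinases, 14 to EIF3, 16 to EIF4 with the EIF4E-binding proteins, 7 to EEF1, and 19 to the remaining factors and the methyltransferases of EEF1A and EEF2. The choice used no measured level.

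The study exposed human lung epithelial lines labelled wild type at an air-liquid interface, and 6 groups of 3 libraries resulted. BEAS-2B cells made up 3 groups, held for 4 h in complete wood smoke, in filtered wood smoke, or, as the control, in clean air. A549 cells made up the same 3. The labels call the agents complete and filtered aerosol; the series title speaks of carbonyl compounds in the gas phase. BEAS-2B is an immortalised bronchial line kept in complete KGM medium, and A549 is a lung carcinoma line kept in RPMI 1640 with serum. Each insert of 24 mm received 500000 BEAS-2B or 400000 A549 cells 24 h ahead, and air or aerosol flowed at 100 mL/min and 85% relative humidity. Line, maintenance medium and seeding number change together, so their parts in a difference between lines cannot be told apart. Nothing in the labels says that samples of 1 group were cultured apart, so p-values measure the spread between samples, which may be technical. In bulk RNA, fewer cells of a kind and less RNA per cell cannot be told apart.

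Libraries held 28532235 to 55032499 gene counts in BEAS-2B cells and 14438397 to 21432089 in A549 cells. CPM below stands for counts scaled to an equal library total with TMM factors. All 5 epithelial markers were present in both lines. KRT18 averaged 3755 CPM in complete smoke against 1485 CPM in clean air in BEAS-2B cells, and 3585 against 2126 CPM in A549 cells, while CDH1 averaged 10.2 against 25.6 CPM and 37.8 against 56 CPM. Of 4 airway basal markers, the keratins KRT5, KRT14 and KRT17 averaged 111, 22.3 and 585 CPM in BEAS-2B and at most 0.603 CPM in A549 cells in clean air, while TP63 averaged 9.21 CPM in BEAS-2B and 15.3 CPM in A549 cells. Of 5 alveolar type 2 markers in A549 cells in clean air, SFTPB and NKX2-1 were at 0 and SFTPC averaged 0.0774 CPM. NAPSA averaged 0.295 CPM in BEAS-2B and 1.54 CPM in A549 cells, and ABCA3 6.4 CPM in BEAS-2B and 36.2 CPM in A549 cells. The leukocyte marker PTPRC averaged at most 0.0631 CPM in any group. The endothelial markers PECAM1 and CDH5 averaged at most 0.176 and 0.52 CPM in any group. The fibroblast collagen COL1A1 averaged 362 CPM in complete smoke, 411 CPM in filtered smoke and 746 CPM in clean air in BEAS-2B cells. There the fibroblast marker PDGFRB averaged 5.56, 7.96 and 30.4 CPM in that order. The fibroblast collagen COL3A1 was near the floor, at 0.688, 0.701 and 0.91 CPM. The gene counts leave out reads that mapped to several places. In BEAS-2B cells their share was 12.9, 10.2 and 31.7% in complete smoke, 10.8, 11.7 and 19.2% in filtered smoke and 7.69 to 9.08% in clean air. Library 3 of each exposed group thus stood apart. Complete smoke library 3 also had 8.5% of reads in no counted gene, where libraries 1 and 2 had 1.2 and 1.08%. The TMM factors of BEAS-2B libraries also differed by group. In the fit of that line alone they were 0.718 to 1 in exposed and 1.144 to 1.521 in clean air libraries. Among all 18 libraries, as used for CPM, they were 0.596 to 0.894 and 1.023 to 1.245. The part of these read shares and scaling factors in the results was not tested. Clean air library 1 of BEAS-2B stood apart from the other 2 in many of the values below, and so did library 3 of exposed A549 cells.

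In initiation, EIF2 carries the initiator transfer RNA to the small ribosomal subunit as a complex with GTP, and EIF2B reloads it with GTP. Kinases that phosphorylate EIF2 turn it into an inhibitor of EIF2B, which lowers translation under stress. EIF3 is a large scaffold on the small subunit, the EIF4 proteins bind and unwind the capped end of the messenger RNA, and EIF4E-binding proteins block the cap-binding EIF4E until mTORC1 phosphorylates them. EEF1A delivers aminoacylated transfer RNA to the elongating ribosome, the EEF1B subunits reload EEF1A with GTP, and EEF2 moves the ribosome on to the next codon. Many of these messenger RNAs, like those of ribosomal proteins, begin with a C and a run of pyrimidines, the terminal oligopyrimidine tract, through which mTORC1 and LARP1 control their translation.

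The start sites of 57 of the 71 genes were read from the RefSeq promoter table (GRCh38.p14). Some of the other factors were left out by chromosome and are named with the tract counts below. So 57 need not be the number listed in that table. On the gene's own strand, the start base was C and was followed by at least 4 bases that were each C or T in 13 of these 57 genes (22.8%), against 5.14% of all 27305 genes in the table. The 13 genes were EEF1A1, EEF1B2, EEF2, EIF2A, EIF2D, EIF2S3, EIF2S3B, EIF3D, EIF3F, EIF3K, EIF3M, EIF4A2 and EIF4B. EEF1B2 and EIF2S3B each also have a listed start without a tract. Sequences of 30 bases follow, 10 before the start base and 20 from it on, for factors whose levels are described below. The first 6 carry such a tract and rose in at least 1 line, the next carries a tract and passed in no comparison with clean air, and the last 3 carry none. Capitals mark the tract.
EEF1A1: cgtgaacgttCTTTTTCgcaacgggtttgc
EEF1B2: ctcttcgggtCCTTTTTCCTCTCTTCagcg
EEF2: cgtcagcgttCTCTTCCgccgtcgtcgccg
EIF3F: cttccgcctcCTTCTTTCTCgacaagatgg
EIF3K: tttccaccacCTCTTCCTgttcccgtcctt
EIF4A2: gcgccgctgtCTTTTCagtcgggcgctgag
EIF2S3: gatttccttcCTCTTTTggcaacatggcgg
EIF2B3: gctgtcagtcagaggcggcgtggagatcgc
EIF2AK3: tgtccgagataggctgtcactcaggtggca
EIF4EBP2: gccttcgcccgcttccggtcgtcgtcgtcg
The windows lie at chr6:73521013-73521042 (minus strand) for EEF1A1, chr2:206159885-206159914 (plus) for EEF1B2, chr19:3985444-3985473 (minus) for EEF2, chr11:7987327-7987356 (plus) for EIF3F, chr19:38619178-38619207 (plus) for EIF3K and chr3:186783567-186783596 (plus) for EIF4A2. They lie at chrX:24054946-24054975 (plus) for EIF2S3, chr1:44986576-44986605 (minus) for EIF2B3, chr2:88627445-88627474 (minus) for EIF2AK3 and chr10:70404135-70404164 (plus) for EIF4EBP2.

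Most translation factors that passed the test were higher in smoke, in both lines and with both aerosols. In BEAS-2B cells, 28 of 64 tested factors rose and 7 fell in complete smoke, where 21.5% of all tested genes rose and 19.5% fell (41% either way). In filtered smoke 26 rose and 7 fell, where 23.6% of all tested genes rose and 24.9% fell (48.6% either way). In A549 cells, 30 of 65 tested factors rose and 5 fell in complete smoke, where 15.6% of all tested genes rose and 16.9% fell (32.5% either way). In filtered smoke 34 rose and 7 fell, where 23.1% of all tested genes rose and 23.5% fell (46.7% either way). The median log2 fold change of the tested factors was 0.54 in complete and 0.58 in filtered smoke in BEAS-2B cells, where the median of all tested genes was -0.06 and -0.07. It was 0.46 and 0.44 in A549 cells, where the median of all tested genes was 0.02 and 0.01. The test was edgeR's quasi-likelihood test over all genes, and a factor passed where its p, adjusted by Benjamini and Hochberg's method, was under 0.05. Both comparisons of a line share its clean air libraries.

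Passing in all 4 comparisons with clean air were 19 factors that rose (EEF1AKMT4, EEF1B2, EEF1D, EIF1, EIF2B2, EIF2B3, EIF2B4, EIF2D, EIF2S1, EIF6 and 9 subunits of EIF3) and 3 that fell (EIF2AK2, EIF2AK3 and EIF4EBP2). In complete smoke 22 of the 63 factors tested in both lines rose in both, 78.6% of those that rose in BEAS-2B cells and 73.3% of those that rose in A549 cells. Over the 13927 genes tested in both lines these shares were 47.5 and 65.2%. In filtered smoke 24 rose in both, 92.3% and 72.7% of the lists, where the shares over all genes tested in both lines were 68.6 and 69.8%. Whether the factors differ from other genes in this was not tested. No factor passed in opposite directions in the 2 lines. Summed over the 71 genes, the share of gene counts was 2.19 to 2.47% in complete smoke, 2.13 to 2.57% in filtered smoke and 2.12 to 2.23% in clean air in BEAS-2B cells, so the groups overlapped. A549 libraries had 1.72 to 1.80% in complete smoke, 1.71 to 1.77% in filtered smoke and 1.44 to 1.49% in clean air, with no overlap.

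The counts moved with the libraries and with the scaling. In A549 cells in complete smoke, 3 factors rose and 0 fell without complete smoke library 2; without complete smoke library 1 it was 10 and 1, and without clean air library 1, 2 or 3 it was 7 and 1, 7 and 2, and 9 and 2. In filtered smoke in A549 cells, 19 rose without filtered smoke library 2, 22 without library 1, 21 and 22 without clean air library 2 or 3, and 11 fell without filtered smoke library 3. In BEAS-2B cells in complete smoke, 17 and 18 rose and 4 fell without complete smoke library 1 or 2, and 15 and 14 rose and 4 fell without clean air library 2 or 3. In filtered smoke 13 rose and 4 fell without clean air library 2 or 3, and 19 rose and 4 fell without filtered smoke library 1 or 2. With TMM scaling replaced by library size alone, the median of all genes fell to -0.75 in complete and -0.74 in filtered smoke in BEAS-2B cells, and the factors split into 14 that rose and 14 that fell in complete smoke and 15 and 15 in filtered smoke. Relative to those medians the factors still lay higher, at medians of -0.13 and -0.11. Over all genes, 8366 passed either way in complete and 9078 in filtered smoke in BEAS-2B cells with library size alone. With TMM scaling it was 6704 and 7947. In A549 cells it was 4570 and 6849 with library size alone, against 4951 and 7112. In A549 cells the replicate numbers were taken to pair the libraries. The fit with a replicate block there raised 37 and lowered 10 in complete smoke, and raised 38 and lowered 11 in filtered smoke. In BEAS-2B cells in filtered smoke the block gave 39 and 11. The calls over all genes with the block or with a library left out are not given here. Whether the factors differ from other genes in any of these settings was not tested.

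**Figure D1:**
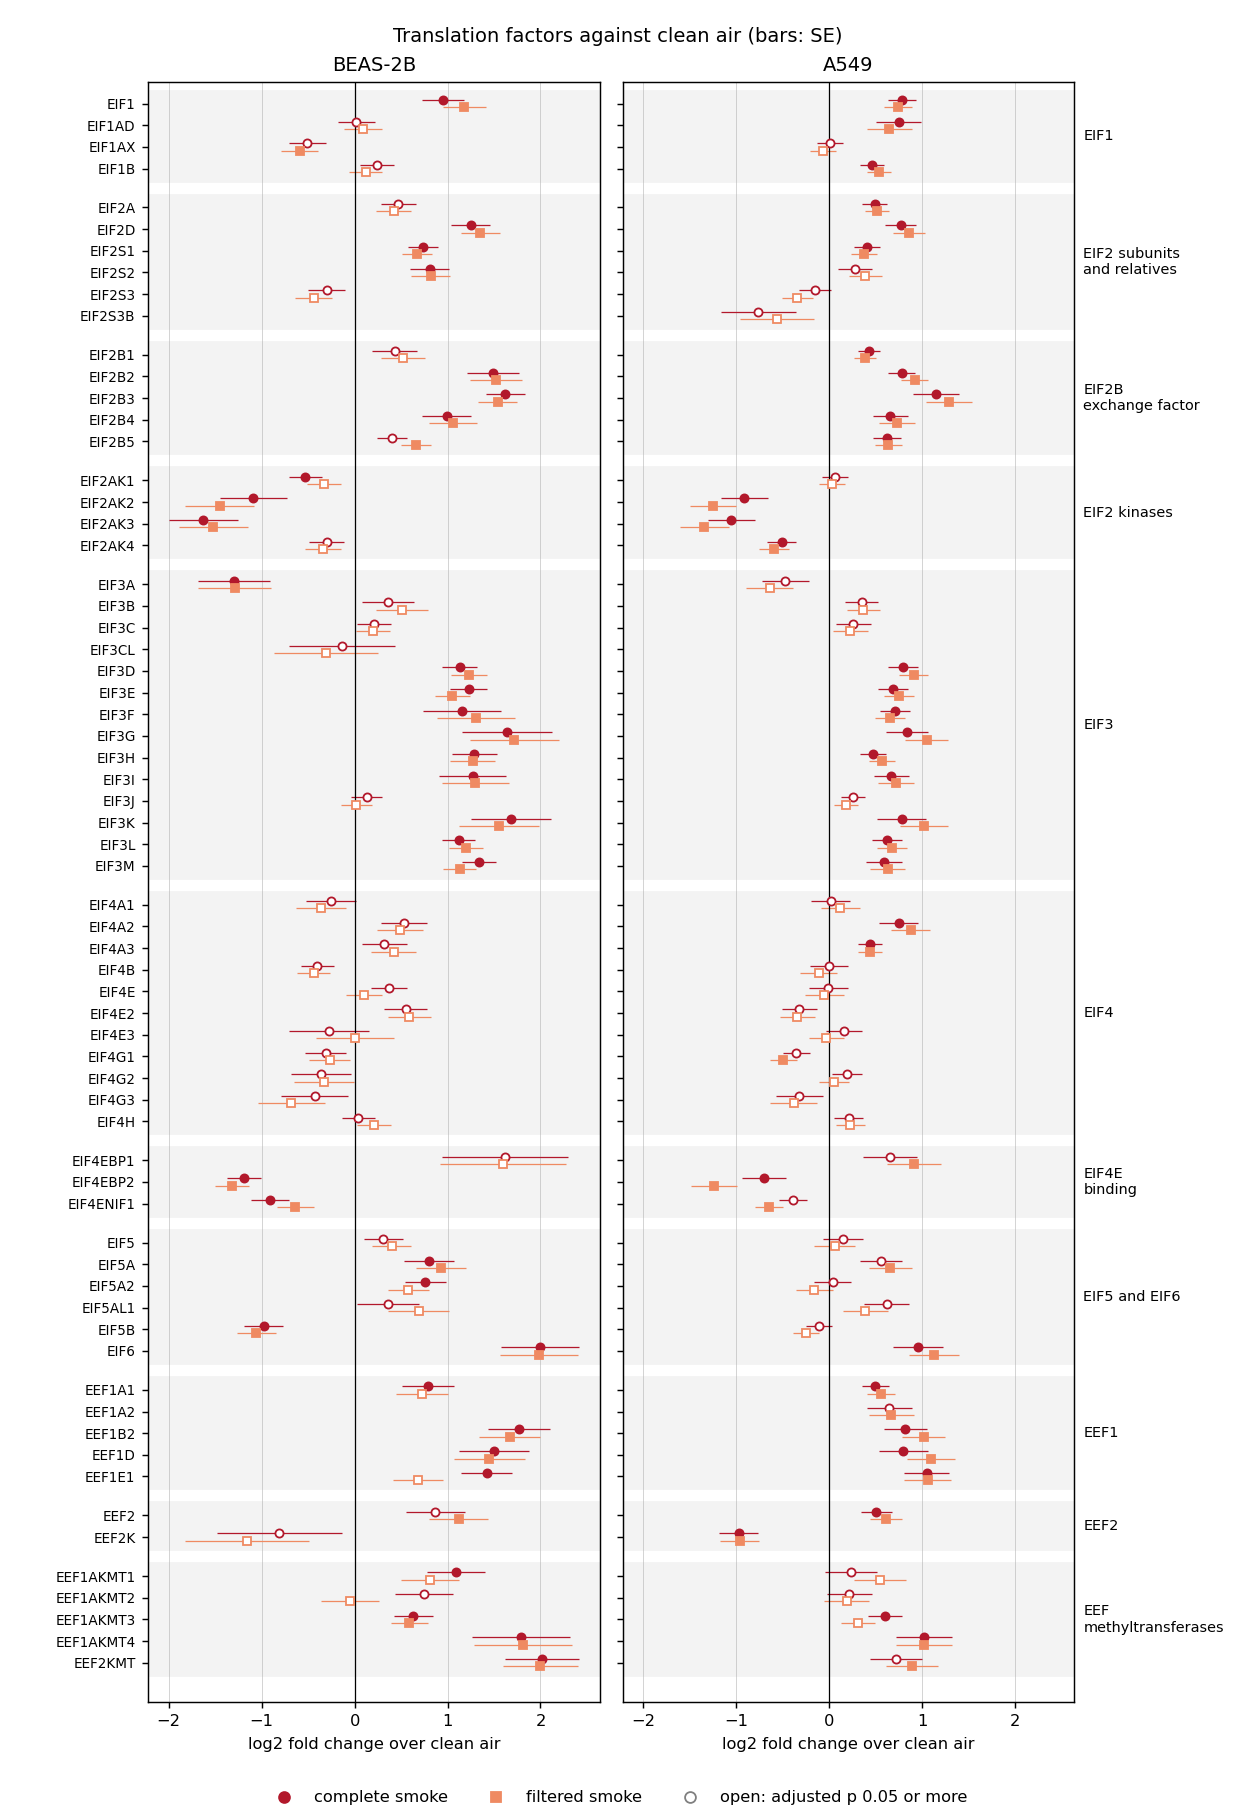
Log2 fold change over clean air (x axis, with SE bars) of each tested translation factor (rows, grouped by factor) in BEAS-2B (left) and A549 cells (right). Circles are complete and squares filtered smoke, and filled symbols passed an edgeR adjusted p of 0.05; most filled symbols lie right of 0, while EIF2AK2, EIF2AK3 and EIF4EBP2 lie left of it in both panels. With library size alone in place of TMM scaling, 14 factors rose and 14 fell in BEAS-2B cells in complete smoke.

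The alpha subunit of EIF2, EIF2S1, whose phosphorylation is the switch of the stress response, rose in both lines with TMM scaling. It had 311, 296 and 284 CPM in complete and 273, 287 and 304 CPM in filtered smoke, against 174, 188 and 179.8 CPM in clean air in BEAS-2B cells. All exposed libraries lay above all clean air libraries, with a log2 fold change of 0.74 ± 0.16 (SE; edgeR adjusted p = 0.00892) in complete and 0.67 ± 0.16 (edgeR adjusted p = 0.0111) in filtered smoke. In A549 cells the change was 0.41 ± 0.14 (edgeR adjusted p = 0.0475) and 0.38 ± 0.14 (edgeR adjusted p = 0.0474). With library size alone EIF2S1 passed in none of the 4, at 0.05 and -0.00 in BEAS-2B and 0.29 and 0.22 in A549 cells. The beta subunit EIF2S2 rose in BEAS-2B cells, by 0.81 ± 0.21 in complete and 0.82 ± 0.21 in filtered smoke, and did not pass in A549 cells. With library size alone its BEAS-2B values were 0.14 and 0.18 and did not pass. The gamma subunit EIF2S3, which binds GTP, passed in none of the 4 comparisons, with log2 fold changes between -0.44 and -0.15. EIF2D, a factor that can place transfer RNA on ribosomes without EIF2, rose in all 4, by 1.25 ± 0.21 in complete smoke in BEAS-2B and 0.77 ± 0.17 in A549 cells. EIF2A, also known for initiation without EIF2, rose in A549 cells alone by this test, and its difference between lines did not pass.

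All 5 subunits of the exchange factor EIF2B rose in A549 cells with either aerosol. In BEAS-2B cells 3 rose in complete and 4 in filtered smoke, and EIF2B1 did not pass there. The gamma subunit EIF2B3 (chr1:44850522-44986722, minus strand, GRCh38), which with EIF2B5 makes up the catalytic part, changed most in both lines. It had 123, 112 and 96 CPM in complete and 111, 98.7 and 107 CPM in filtered smoke, against 44, 32 and 31.7 CPM in clean air in BEAS-2B cells. It had 25.6, 25.2 and 15.4 CPM in complete and 30.7, 25.5 and 16.5 CPM in filtered smoke, against 9.87, 10.5 and 9.48 CPM in clean air in A549 cells. No exposed library of either line overlapped its clean air libraries, and library 3 of exposed A549 cells lay nearest to them. The log2 fold change was 1.62 ± 0.21 (edgeR adjusted p = 0.0019) and 1.54 ± 0.21 (edgeR adjusted p = 0.00241) in BEAS-2B cells, and 1.15 ± 0.25 (edgeR adjusted p = 0.0112) and 1.29 ± 0.25 (edgeR adjusted p = 0.00448) in A549 cells, for complete and filtered smoke in that order. The regulatory subunit EIF2B2 rose by 1.49 ± 0.28 in complete smoke in BEAS-2B cells and by 0.78 ± 0.15 in A549 cells. EIF2B5, the catalytic epsilon subunit, rose by 0.66 ± 0.16 in filtered smoke in BEAS-2B cells and by 0.62 ± 0.15 in complete smoke in A549 cells; with library size alone its BEAS-2B value was -0.00, as was that of EIF2S1.

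Of the 4 kinases that act on EIF2, 3 fell in complete and 2 in filtered smoke in BEAS-2B cells, 3 fell with each aerosol in A549 cells, and none of the 4 rose. EIF2AK3, known as PERK, the kinase that senses unfolded protein in the endoplasmic reticulum, fell in all 4 comparisons. EIF2AK3 (chr2:88556741-88627576, minus strand, GRCh38) had 5.46, 10.8 and 11 CPM in complete and 6, 12.7 and 11.3 CPM in filtered smoke, against 19.6, 33.4 and 33.5 CPM in clean air in BEAS-2B cells. In A549 cells it had 15.2, 15.1 and 22.7 CPM in complete and 12.3, 10.6 and 20.3 CPM in filtered smoke, against 39.8, 33.5 and 36.8 CPM in clean air. The groups did not overlap, and the log2 fold change was -1.63 ± 0.37 (edgeR adjusted p = 0.0105) in complete smoke in BEAS-2B and -1.05 ± 0.25 (edgeR adjusted p = 0.0157) in A549 cells. EIF2AK2, known as PKR, which binds double-stranded RNA, fell by 1.09 ± 0.36 on the log2 scale in complete smoke in BEAS-2B cells, where complete smoke library 3 (38 CPM) exceeded clean air library 1 (31.3 CPM). A549 libraries showed a fall by 0.91 ± 0.25 in complete and by 1.25 ± 0.25 in filtered smoke without overlap. EIF2AK4, known as GCN2, which senses uncharged transfer RNA, fell in A549 cells by 0.51 ± 0.16 in complete and 0.59 ± 0.16 in filtered smoke. With offsets for GC content and length its values turned to 0.10 and 0.12 and did not pass. EIF2AK1, known as HRI, which senses haem and mitochondrial stress, fell by 0.53 ± 0.18 in complete smoke in BEAS-2B cells and had log2 fold changes of 0.06 and 0.03 in A549 cells.

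EIF3 split by subunit. The 9 subunits EIF3D, EIF3E, EIF3F, EIF3G, EIF3H, EIF3I, EIF3K, EIF3L and EIF3M rose in all 4 comparisons, while EIF3B, EIF3C and EIF3J passed in none and EIF3A fell in BEAS-2B cells. The counts of EIF3 subunits that passed were the same with DESeq2 size factors and with upper-quartile scaling. With library size alone, 5 rose and 1 fell in complete and 6 rose and 1 fell in filtered smoke in BEAS-2B cells, and 6 rose and 0 fell, and 9 rose and 1 fell in A549 cells. EIF3K (chr19:38619082-38636955, plus strand, GRCh38), a small peripheral subunit, had 1035, 679.7 and 504 CPM in complete and 866, 624 and 562 CPM in filtered smoke, against 375, 157 and 149 CPM in clean air in BEAS-2B cells. A549 libraries held 331, 331 and 203 CPM in complete and 439, 369 and 219 CPM in filtered smoke, against 189, 165 and 155 CPM in clean air. All exposed libraries were above all clean air libraries in both lines, and the log2 fold change was 1.68 ± 0.43 (edgeR adjusted p = 0.0157) in complete smoke in BEAS-2B and 0.78 ± 0.26 (edgeR adjusted p = 0.0457) in A549 cells. Among the others, the log2 fold change in complete smoke ran from 1.12 ± 0.18 for EIF3L to 1.64 ± 0.48 for EIF3G in BEAS-2B cells and from 0.47 ± 0.14 for EIF3H to 0.84 ± 0.23 for EIF3G in A549 cells. EIF3F and EIF3G overlapped clean air in BEAS-2B cells in complete smoke, where library 3 of the exposed cells was low at 198 and 228 CPM.

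EIF3A (chr10:119033670-119080823, minus strand, GRCh38), the largest subunit and the scaffold of the complex, had 94.8, 171 and 186 CPM in complete and 78.8, 172 and 213 CPM in filtered smoke, against 283, 444 and 415 CPM in clean air in BEAS-2B cells. In A549 cells it had 256, 275 and 422 CPM in complete and 218, 246 and 384 CPM in filtered smoke, against 462, 443 and 427 CPM in clean air. It was below clean air in every exposed library of both lines, and it fell by 1.30 ± 0.39 (edgeR adjusted p = 0.0272) and 1.29 ± 0.39 (edgeR adjusted p = 0.0246) on the log2 scale in BEAS-2B cells. In A549 cells the log2 fold changes of -0.47 ± 0.25 (edgeR adjusted p = 0.153) and -0.64 ± 0.25 (edgeR adjusted p = 0.0535) did not pass.

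A ratio within a library does not depend on the scaling between libraries. Per kb of exon, EIF3A stood at 0.145, 0.238 and 0.342 of the median level of 11 other EIF3 subunits in complete smoke and at 0.124, 0.255 and 0.31 in filtered smoke, against 0.839, 1.53 and 1.53 in clean air in BEAS-2B cells. In A549 cells the ratio was 0.872, 0.893 and 1.76 in complete and 0.679, 0.806 and 1.53 in filtered smoke, against 2.34, 2.21 and 2.25 in clean air. The ratio shows that EIF3A and the other subunits changed unequally in each exposed library, with library 3 of exposed A549 cells changed least. It is a description with no test of its own.

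**Figure D2:**
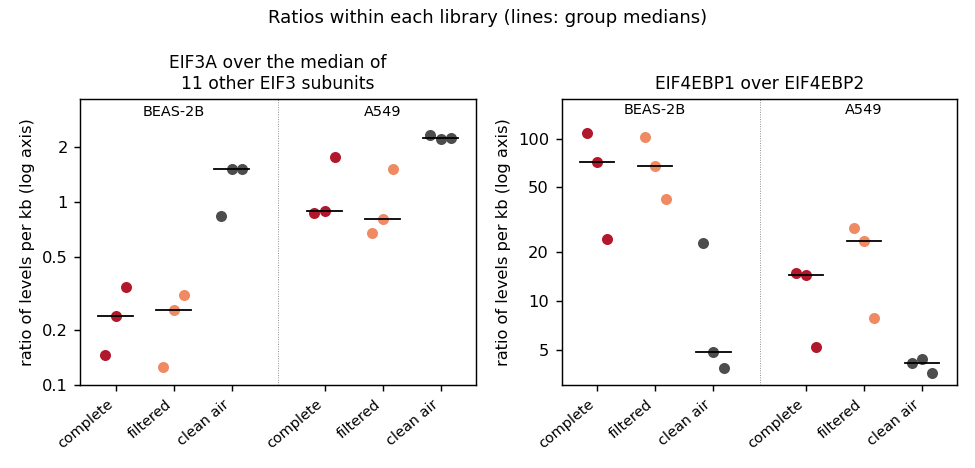
Ratios of levels per kb of exon within each library on log axes, for EIF3A over the median of 11 other EIF3 subunits (left) and EIF4EBP1 over EIF4EBP2 (right). Points are libraries and lines group medians; the EIF3A ratio is at or below 0.342 in exposed BEAS-2B libraries and at or above 0.839 in clean air.

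The cap-binding and unwinding proteins of EIF4 gave few calls. Of 11 tested, 0 passed with edgeR in BEAS-2B cells with either aerosol. In complete smoke 1 of the 11 had an unadjusted p under 0.05, 1 passed with DESeq2 and 0 passed with limma-voom. In filtered smoke 2 had an unadjusted p under 0.05, 2 passed with DESeq2 and 1 with limma-voom. Under library size alone edgeR lowered 3 in complete and 4 in filtered smoke there. In A549 cells the helicase EIF4A2, which unwinds the leader of the messenger RNA, had 264, 351 and 369 CPM in complete and 270.1, 338 and 469 CPM in filtered smoke, against 183, 203 and 203 CPM in clean air. It rose by 0.75 ± 0.21 (edgeR adjusted p = 0.0257) and 0.88 ± 0.21 (edgeR adjusted p = 0.00953) without overlap. EIF4A3, a helicase of the exon junction complex, rose there by 0.44 ± 0.13 with each aerosol. No EIF4 factor rose in complete smoke in A549 cells with library size alone (0 of 11), where EIF4A2 had 0.62 (edgeR adjusted p = 0.0643). The scaffold EIF4G1, which joins the cap-binding protein to EIF3, fell by 0.49 ± 0.15 (edgeR adjusted p = 0.0232) in filtered smoke in A549 cells, and its complete smoke value of -0.35 ± 0.15 did not pass. EIF4E, the cap-binding protein itself, had log2 fold changes of 0.37 and 0.10 in BEAS-2B and -0.01 and -0.05 in A549 cells, and none passed. The related scaffolds EIF4G2 and EIF4G3, the helicase partners EIF4B and EIF4H, and the cap-binding relatives EIF4E2 and EIF4E3 passed in no comparison with clean air.

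Of the proteins that bind EIF4E, EIF4EBP2, a repressor released by mTORC1, fell in all 4 comparisons. EIF4EBP2 (chr10:70404379-70428618, plus strand, GRCh38) had 39.1, 35.4 and 40.7 CPM in complete and 37.7, 35.6 and 33.8 CPM in filtered smoke, against 70.1, 105 and 92.3 CPM in clean air in BEAS-2B cells. It had 45.5, 41.6 and 71.7 CPM in complete and 29.9, 31.1 and 48.2 CPM in filtered smoke, against 88.2, 82.3 and 88.6 CPM in clean air in A549 cells. No groups overlapped, and the values were close together in exposed BEAS-2B cells. The log2 fold change was -1.19 ± 0.18 (edgeR adjusted p = 0.00276) and -1.32 ± 0.18 (edgeR adjusted p = 0.00245) in BEAS-2B cells, and -0.70 ± 0.24 (edgeR adjusted p = 0.0494) and -1.24 ± 0.25 (edgeR adjusted p = 0.00451) in A549 cells. EIF4ENIF1, which carries EIF4E into the nucleus, fell in 3 of the 4 comparisons, by 0.91 ± 0.20 in complete smoke in BEAS-2B cells, and had -0.39 in complete smoke in A549 cells, which did not pass.

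EIF4EBP1, the best known repressor of the family, had positive log2 fold changes in all 4 comparisons. It passed at 0.91 ± 0.29 (edgeR adjusted p = 0.0282) in filtered smoke in A549 cells, and with offsets for GC content and length this turned to -0.25 (edgeR adjusted p = 0.0999). With the replicate block as well, it passed as a fall, at -0.25 (edgeR adjusted p = 0.0304), so no direction is given for it. In BEAS-2B cells its log2 fold changes of 1.62 ± 0.68 and 1.60 ± 0.68 did not pass, and clean air library 1 had 235 CPM where the others had 75.1 and 52.8 CPM. Per kb of exon and within a library, EIF4EBP1 stood at 109, 72.3 and 24 times EIF4EBP2 in complete and 103, 67.6 and 42.4 times in filtered smoke, against 22.6, 4.84 and 3.87 times in clean air in BEAS-2B cells. For A549 cells it stood at 14.8, 14.4 and 5.16 times in complete and 28.3, 23.5 and 7.84 times in filtered smoke, against 4.14, 4.39 and 3.61 times in clean air. The ratio was higher in every exposed library than in every clean air library of the same line. It has no offsets for GC content and length, with which the EIF4EBP1 value turned in filtered smoke in A549 cells. So the ratio gives no direction for EIF4EBP1 either. EIF4EBP3 was not tested, and 73.4% of its exon bases are shared with a readthrough gene on the same strand.

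All tested EEF1 subunits rose in filtered smoke in A549 cells (5 of 5) and in complete smoke in BEAS-2B cells (4 of 4). In complete smoke 4 of 5 rose in A549 cells, and in filtered smoke 2 of 4 in BEAS-2B cells. Scaled by library size alone, 3 and 2 rose in BEAS-2B and 3 and 4 in A549 cells in complete and filtered smoke, and 0 fell. EEF1B2 (chr2:206159585-206162928, plus strand, GRCh38), an exchange factor of EEF1A, had the highest fold changes of the group in BEAS-2B cells. It had 1967, 1488 and 1195 CPM in complete and 1756, 1376 and 1271 CPM in filtered smoke, against 649, 363 and 344 CPM in clean air in BEAS-2B cells. The A549 libraries had 314, 339.8 and 218 CPM in complete and 411, 362 and 230.5 CPM in filtered smoke, against 169, 168 and 159 CPM in clean air. There was no overlap in either line, and the log2 fold change was 1.77 ± 0.33 (edgeR adjusted p = 0.00551) in complete smoke in BEAS-2B and 0.82 ± 0.23 (edgeR adjusted p = 0.0236) in A549 cells. Its partner EEF1D rose by 1.5 ± 0.38 in BEAS-2B and 0.80 ± 0.26 in A549 cells in complete smoke. EEF1E1, an auxiliary protein of the aminoacyl-tRNA synthetase complex also called AIMP3, rose by 1.42 ± 0.27 in BEAS-2B and 1.05 ± 0.24 in A549 cells in complete smoke, and its BEAS-2B value of 0.68 in filtered smoke did not pass.

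EEF1A1 (chr6:73515750-73523797, minus strand, GRCh38), the main carrier of transfer RNA, was the most abundant factor per kb of exon in both lines. It had 13349, 12910 and 11066 CPM in complete and 11258, 12143 and 12783 CPM in filtered smoke, against 9085, 6307 and 6144 CPM in clean air in BEAS-2B cells. In A549 cells it had 3570, 3959 and 3331 CPM in complete and 4079, 3866 and 3400 CPM in filtered smoke, against 2660, 2450 and 2602 CPM in clean air. With TMM scaling all exposed libraries were above clean air, and it rose by 0.79 ± 0.28 (edgeR adjusted p = 0.0443) in complete smoke in BEAS-2B cells and by 0.50 ± 0.15 (edgeR adjusted p = 0.0328) in A549 cells. The filtered smoke value of 0.73 in BEAS-2B cells did not pass. As a share of gene counts, with no TMM scaling, EEF1A1 took 0.795, 0.92 and 0.99% in complete and 0.705, 0.895 and 1.03% in filtered smoke, against 0.929, 0.759 and 0.765% in clean air in BEAS-2B cells, and these overlapped. Scaled by library size alone its complete smoke value there was 0.14 (edgeR adjusted p = 0.547), and in A549 cells 0.38 (edgeR adjusted p = 0.048). EEF1A1 has 49 named pseudogenes, so reads that match a copy as well are missing from its count.

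In A549 cells EEF2 rose and the kinase that acts on it fell, with either aerosol. EEF2 (chr19:3976056-3985469, minus strand, GRCh38) rose by 1.12 ± 0.32 (edgeR adjusted p = 0.0206) in filtered smoke in BEAS-2B cells, where it had 3400, 3410 and 2240 CPM against 1357, 1539 and 1246 CPM in clean air. A549 cells showed rises of 0.51 ± 0.17 in complete and 0.61 ± 0.17 in filtered smoke. With library size alone EEF2 still passed in filtered smoke in A549 cells, at 0.44. Its 0.38 in complete smoke there and its 0.43 in filtered smoke in BEAS-2B cells did not pass. EEF2K, the kinase that switches EEF2 off, fell in A549 cells, to 2.97, 2.99 and 3.32 CPM in complete and 2.7, 2.54 and 4.11 CPM in filtered smoke, against 6.41, 5.95 and 5.96 CPM in clean air. The groups did not overlap, with log2 fold changes of -0.97 ± 0.21 (edgeR adjusted p = 0.011) and -0.96 ± 0.21 (edgeR adjusted p = 0.00687). In BEAS-2B cells EEF2K ranged from 0.913 to 4.87 CPM within clean air alone, and its values of -0.81 and -1.16 did not pass. EEF2KMT, which methylates EEF2, rose by 2.02 ± 0.40 (edgeR adjusted p = 0.00664) in complete and 2.0 ± 0.40 (edgeR adjusted p = 0.00645) in filtered smoke in BEAS-2B cells, the highest of all factors there, and by 0.89 ± 0.28 in filtered smoke in A549 cells. EEF1AKMT4, which methylates EEF1A, rose in all 4 comparisons, by 1.79 ± 0.53 in BEAS-2B and 1.02 ± 0.30 in A549 cells in complete smoke, at 8.11 to 23.6 and 2.61 to 5.18 CPM.

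EIF6 (chr20:35278911-35284985, minus strand, GRCh38), which keeps the large ribosomal subunit from joining the small one and acts in making large subunits, rose strongly in BEAS-2B cells. It had 1445, 1041 and 700 CPM in complete and 1401, 955 and 826 CPM in filtered smoke, against 417, 195 and 175 CPM in clean air there. A549 libraries held 155, 171 and 100.4 CPM in complete and 193, 187 and 98.7 CPM in filtered smoke, against 78.8, 77.2 and 64.8 CPM in clean air. Neither line showed overlap, and the log2 fold change was 1.99 ± 0.42 (edgeR adjusted p = 0.0083) and 1.98 ± 0.42 (edgeR adjusted p = 0.00791) in BEAS-2B cells, and 0.96 ± 0.27 (edgeR adjusted p = 0.0243) and 1.13 ± 0.27 (edgeR adjusted p = 0.00902) in A549 cells. EIF5B, the GTPase that joins the subunits, fell in BEAS-2B cells by 0.98 ± 0.21 in complete and 1.06 ± 0.21 in filtered smoke, to 94.4, 112 and 105 CPM and to 79.7, 97.7 and 121 CPM, against 223, 195 and 201 CPM in clean air. Its A549 values of -0.11 and -0.25 did not pass. EIF5A, the hypusine-bearing factor that helps ribosomes through prolines, rose by 0.80 ± 0.27 in complete and 0.93 ± 0.27 in filtered smoke in BEAS-2B cells and by 0.66 ± 0.23 in filtered smoke in A549 cells. With library size alone EIF5A had 0.12, 0.28 and 0.50 in these comparisons and passed in none. Its groups overlapped in complete smoke in BEAS-2B cells, where complete smoke library 3 had 517 CPM and clean air library 1 had 531 CPM, and in filtered smoke in A549 cells. EIF5, the activator of the GTPase of EIF2, passed in no comparison with clean air.

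EIF1, which guards the choice of start codon, rose in all 4 comparisons. It had 1045, 1083 and 753 CPM in complete and 1138, 1199 and 1074 CPM in filtered smoke, against 579, 477 and 437 CPM in clean air in BEAS-2B cells. It had 798, 1011 and 896 CPM in complete and 826, 966 and 835 CPM in filtered smoke, against 488, 597 and 491 CPM in clean air in A549 cells. All exposed libraries lay above clean air, with log2 fold changes of 0.95 ± 0.23 (edgeR adjusted p = 0.0119) and 1.18 ± 0.23 (edgeR adjusted p = 0.00559) in BEAS-2B cells, and 0.79 ± 0.15 (edgeR adjusted p = 0.00716) and 0.74 ± 0.15 (edgeR adjusted p = 0.00516) in A549 cells. Its partner in scanning, EIF1AX, fell by 0.59 ± 0.20 in filtered smoke in BEAS-2B cells and had values of 0.01 and -0.07 in A549 cells. Of the 5 members of the EIF1 group, which include the Y-linked EIF1AY, 2 rose in BEAS-2B and 3 in A549 cells in complete smoke. With library size alone, 0 rose and 2 fell in BEAS-2B cells.

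**Figure D3:**
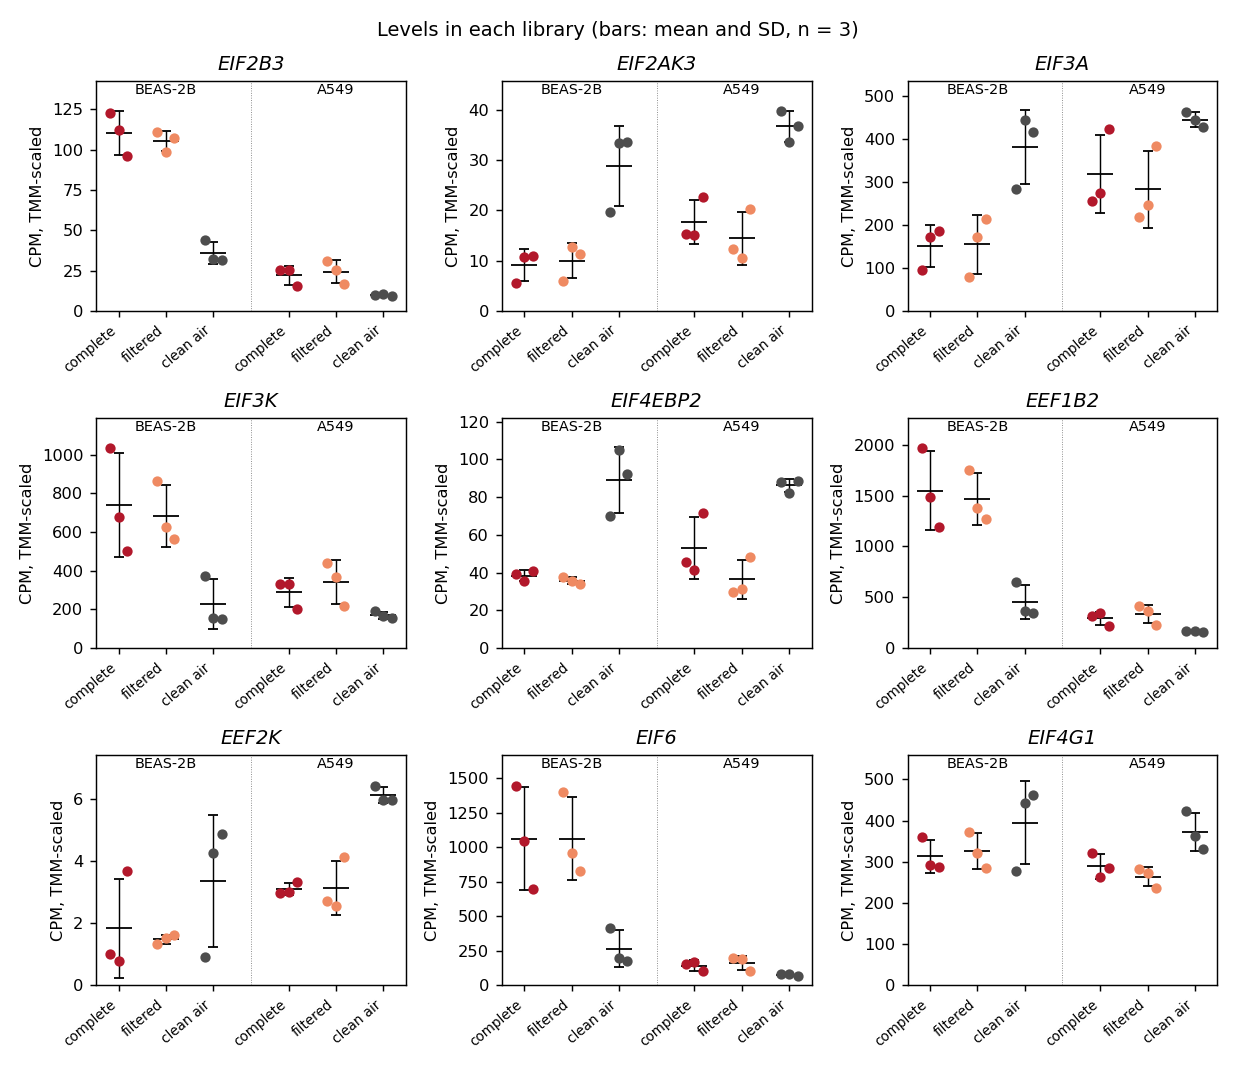
Level of 9 translation factors in each library (y axis, TMM-scaled CPM from 0) in complete smoke, filtered smoke and clean air, for BEAS-2B (left of each panel) and A549 cells (right). Points are libraries, bars mean and SD (n = 3); EIF2B3 lies between 96 and 123 CPM in exposed BEAS-2B libraries against 31.7 to 44 CPM in clean air, while EIF4EBP2 lies between 33.8 and 40.7 CPM against 70.1 to 105 CPM.

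Other genes of the pathway were read from a list of 43. In BEAS-2B cells 8 rose and 4 fell in complete smoke and 10 rose and 9 fell in filtered smoke; in A549 cells 7 rose and 4 fell, and 11 rose and 8 fell. Over all tested genes the shares higher and lower were 21.5 and 19.5%, and 23.6 and 24.9% in BEAS-2B cells, and 15.6 and 16.9%, and 23.1 and 23.5% in A549 cells, for complete and filtered smoke in that order. The medians were -0.17 and -0.14 in BEAS-2B and 0.03 and -0.01 in A549 cells, near those of all genes. Under library size alone 4 rose and 25 fell in complete and 4 rose and 23 fell in filtered smoke in BEAS-2B cells, at medians of -0.88 and -0.81, and 6 rose and 6 fell, and 8 rose and 13 fell in A549 cells. Around EIF2, ATF4, a transcription factor translated more when EIF2 is phosphorylated, rose by 0.75 in complete and 0.96 in filtered smoke in A549 cells and by 1.14 in filtered smoke in BEAS-2B cells, and its 1.10 in complete smoke in BEAS-2B cells did not pass. The phosphatase subunit PPP1R15A had 249, 379.7 and 196 CPM in complete and 232, 426 and 312 CPM in filtered smoke, against 142, 123 and 90.4 CPM in clean air in BEAS-2B cells, and rose by 1.21 and 1.43. In A549 cells PPP1R15A averaged 782 CPM in complete and 783 CPM in filtered smoke, against 125 CPM in clean air. With library size alone it passed there, at 2.53 and 2.51, while its 0.81 in filtered smoke in BEAS-2B cells did not pass. DDIT3, also on the list, rose in all 4 comparisons with library size alone, by 1.03 and 1.13 in BEAS-2B and 1.52 and 1.86 in A549 cells. DNAJC3, an inhibitor of the EIF2 kinases, had log2 fold changes of -2.23 in complete and -2.56 in filtered smoke in BEAS-2B cells and fell in A549 cells too.

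Some other partners of initiation and elongation rose in both lines. Of 12 partners that act on the poly(A) tail or in scanning, 2 rose and 0 to 3 fell in each comparison with clean air. Of 6 in release and recycling, 0 rose. Of 4 in elongation, 2 rose and 1, DHPS, fell in BEAS-2B cells with each aerosol. DHPS averaged 1.03 CPM in complete and 1.17 CPM in filtered smoke there, against 2.72 CPM in clean air. MCTS1, which acts with DENR in recycling and reinitiation, had 106, 105 and 91 CPM in complete and 95.8, 91.8 and 88.2 CPM in filtered smoke, against 32.1, 27.3 and 25.8 CPM in clean air in BEAS-2B cells. It rose by 1.83 ± 0.18 (edgeR adjusted p = 0.00124) and 1.68 ± 0.18 there, and by 0.92 ± 0.20 and 1.0 ± 0.20 in A549 cells, while DENR fell by 0.52 ± 0.15 in filtered smoke in BEAS-2B cells and did not pass in the other 3 comparisons. EEFSEC, the elongation factor for selenocysteine, rose in all 4 comparisons, by 1.56 ± 0.33 in BEAS-2B and 1.02 ± 0.30 in A549 cells in complete smoke. TPT1, a messenger RNA with a start tract whose protein binds elongation factors, rose by 1.68 ± 0.28 in BEAS-2B and 0.73 ± 0.18 in A549 cells. LARP1, the protein that binds start tracts, fell in A549 cells by 0.99 ± 0.17 (edgeR adjusted p = 0.00452) and 1.29 ± 0.17 (edgeR adjusted p = 0.0012), and its -0.58 and -0.86 in BEAS-2B cells did not pass. Of the mTORC1 and MNK genes, the kinase RPS6KB1 fell in all 4 comparisons, by 1.09 ± 0.28 in BEAS-2B and 0.61 ± 0.20 in A549 cells in complete smoke, while MTOR itself passed in none. The release factors ETF1 and GSPT1 and the recycling factor ABCE1 passed in no comparison with clean air.

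No factor passed between complete and filtered smoke. With edgeR 0 of 64 factors in BEAS-2B and 0 of 65 in A549 cells differed between the aerosols, as did 0% of all tested genes in either line. An unadjusted p under 0.05 was reached by 2 factors in BEAS-2B and 1 in A549 cells, and DESeq2 and limma-voom called 0. The log2 difference ran from -0.33 ± 0.32 for EIF5AL1 to 0.79 ± 0.31 for EEF1AKMT2 in BEAS-2B cells and from -0.31 ± 0.28 for EEF1AKMT1 to 0.54 ± 0.24 for EIF4EBP2 in A549 cells. Its median size was 0.10 in each line, where the median SE was 0.24 in BEAS-2B and 0.19 in A549 cells. EIF4EBP2 had 45.5, 41.6 and 71.7 CPM in complete and 29.9, 31.1 and 48.2 CPM in filtered smoke in A549 cells, and these overlapped.

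Whether the response differed between lines depended on the fit. With edgeR and no block, 0 of 65 factors passed the interaction of line and complete smoke, where 0.565% of all tested genes were higher and 1.17% lower in BEAS-2B than in A549 cells (1.74% either way). For filtered smoke it was 0 of 65 as well, where 0.311% of all tested genes were higher and 0.514% lower (0.825% either way). An unadjusted p under 0.05 was reached by 14 factors for complete and 7 for filtered smoke; DESeq2 called 3 and 1, and limma-voom 0 and 0. With a replicate block, 14 factors were higher and 2 lower in the interaction with filtered smoke. The numbers were taken to pair its libraries in both lines, from correlations in the same data. The block gave 17 higher and 7 lower for complete smoke, where 1 pair of BEAS-2B libraries did not deviate together. With library size alone and no block, 0 were higher and 8 lower for complete smoke, and 0 higher and 2 lower for filtered smoke. Over all genes 1571 and 822 passed in either direction in that setting, against 308 and 146 with TMM scaling. Whether the factors differ from other genes with the block or with library size alone was not tested. EEF2KMT had the highest interaction with complete smoke, at 1.32 ± 0.50 (edgeR adjusted p = 0.194). EIF5B, which fell in BEAS-2B cells, had -0.87 ± 0.24 (edgeR adjusted p = 0.0752), the smallest p of the factors. Without BEAS-2B clean air library 1 and complete smoke library 3 together, 17 factors were higher and 6 lower in the interaction with complete smoke. The share over all genes in that fit is not given here.

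In clean air the lines differed in many factors. Of 65 tested, 30 were higher in BEAS-2B than in A549 cells, where 27.3% of all tested genes were higher, and 9 were lower, where 28% were lower (55.4% either way). The median log2 difference was 0.50, against 0.01 over all tested genes. EEF1A2, the EEF1A form of muscle and neurons that some tumours carry, had 0.189, 0.268 and 0.366 CPM in BEAS-2B cells, from 6 to 13 counts in a library, against 91.3, 109 and 93.3 CPM in A549 cells. It passed the filter on low counts through A549 libraries, so no test is given for it. EEF1A1 was higher in BEAS-2B cells by 1.48 ± 0.20 (edgeR adjusted p = 9.61e-06), at 1207 ± 278 CPM per kb of exon in BEAS-2B and 432 ± 18.2 CPM per kb in A549 cells (SD, n = 3). It took 41.7, 35 and 36% of all counts of translation factors in BEAS-2B and 22.3, 21 and 23.2% in A549 cells in clean air. EEF2 came next per kb in each line, at 343 ± 36.7 and 280.1 ± 12.6 CPM per kb, and its difference of 0.29 ± 0.26 did not pass.

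EIF2B3, EEF1D and EIF6, which rose in smoke in both lines, were also higher in BEAS-2B than in A549 cells in clean air, by 1.85 ± 0.24, 1.88 ± 0.34 and 1.83 ± 0.37. The kinase EIF2AK2 was lower in BEAS-2B cells by 0.92 ± 0.32 on the log2 scale, with 31.3, 67.2 and 68.6 CPM against 108, 106 and 101 CPM in A549 cells. The cap-binding relative EIF4E3 (-2.60 ± 0.32) and the EIF5A relative EIF5AL1 (-3.54 ± 0.30) were lower in BEAS-2B cells too. EIF5AL1 is a near copy of EIF5A, so how reads were divided between them is uncertain. EIF3A, EIF4EBP2 and EIF1 did not pass between lines in clean air, with differences of -0.22, 0.04 and -0.08.

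**Figure D4:**
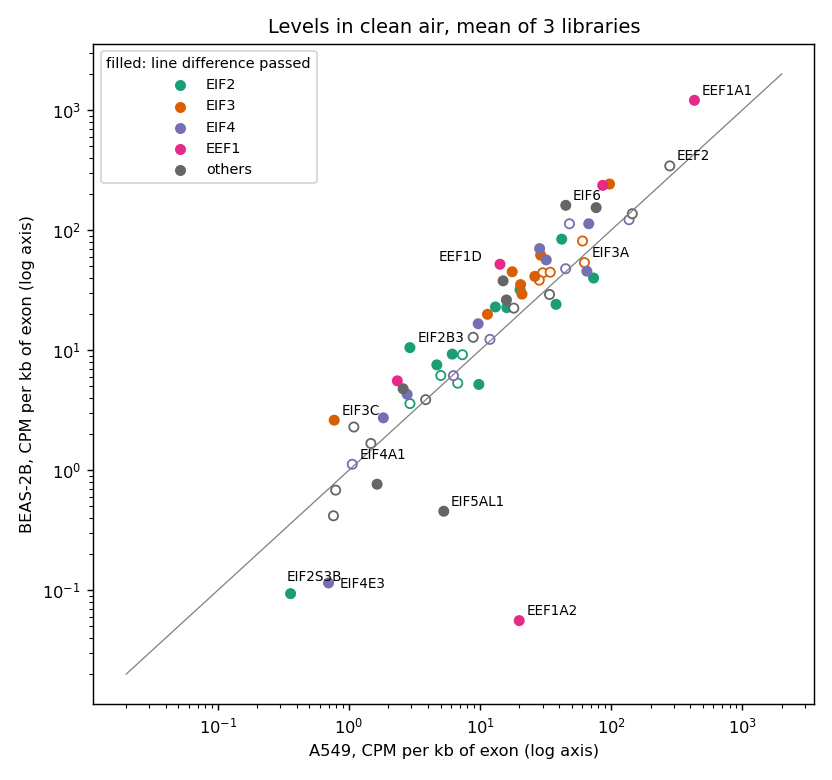
Level per kb of exon in clean air (mean of 3 libraries, log axes) in BEAS-2B (y axis) against A549 cells (x axis), coloured by factor, with the line of equal levels. Filled points passed an edgeR adjusted p of 0.05 between the lines; EEF1A2 lies far below the line and EIF2B3, EEF1D and EIF6 above it.

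Factors with and without a start tract were set side by side, among the 57 genes whose start sites were read. EEF1D, EIF3E and EIF3H, which rose in all 4 comparisons, lie on chromosome 8 and so were left out of the reading. EIF4EBP1 lies on that chromosome too and was left out as well. EIF3G and EIF3L, which also rose in all 4, were not among the 57 either. Nor was EIF3A, which fell in BEAS-2B cells. With a tract, 7 of 12 tested factors rose and 0 fell in BEAS-2B cells with each aerosol, and 10 of 13 rose and 0 fell in A549 cells with each. Without one, 12 of 39 rose and 5 fell in complete and 11 rose and 6 fell in filtered smoke in BEAS-2B cells, and in A549 cells 14 and 16 of 39 rose while 5 and 7 fell. The median log2 fold change in complete smoke was 1.0 with and 0.32 without a tract in BEAS-2B cells and 0.59 with and 0.26 without in A549 cells. EIF4B and EIF2S3 carry a tract, yet neither rose. EIF2B3 and EIF6 carry none at the listed starts and rose in all 4 comparisons. With library size alone, 5 of the 12 with a tract rose and 2 fell in BEAS-2B cells with each aerosol, and 6 and 10 of 13 rose and 0 fell in A549 cells. Without a tract, 5 rose and 10 fell in complete and 6 rose and 11 fell in filtered smoke in BEAS-2B cells, and 9 rose and 7 fell, and 11 rose and 8 fell in A549 cells. These are descriptions of matched letters, with no test.

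Fold change followed the span of a gene on the chromosome in these factors, as it did across coding genes. Spearman's rho between span and log2 fold change was -0.32 in complete and -0.38 in filtered smoke over 64 factors in BEAS-2B cells, and -0.48 and -0.44 over 65 in A549 cells. Over all tested coding genes rho was -0.38 and -0.43 in BEAS-2B and -0.51 and -0.49 in A549 cells. These are correlations across genes that share the same libraries and are not independent, so they are given as descriptions. The factors that rose in complete smoke had a median span of 18.2 kb and those that fell 57.9 kb in BEAS-2B cells, against 11.5 and 70.8 kb in A549 cells. EIF2B3 and the subunits EIF3E and EIF3H were exceptions, with spans of 136, 234 and 125 kb and rises in both lines. With offsets for GC content, length and span, 33 factors rose and 4 fell in complete and 34 and 6 in filtered smoke in BEAS-2B cells. In A549 cells it was 18 and 4, and 28 and 7. The shares over all genes with these offsets are not given here.

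**Figure D5:**
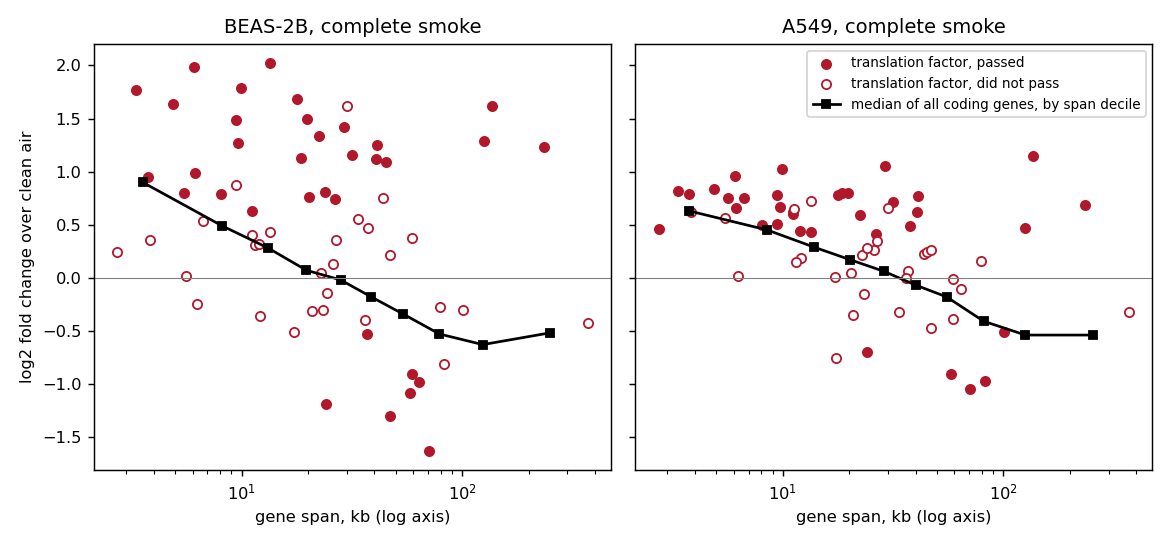
Log2 fold change in complete smoke over clean air (y axis) against gene span (x axis, log scale) of each tested translation factor in BEAS-2B (left) and A549 cells (right). Filled points passed and squares joined by a line give the median of all tested coding genes by span decile; the median of coding genes with the shortest spans is 0.90 in BEAS-2B and 0.63 in A549 cells.

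Some factors could not be measured by these counts. In each line 65 or 64 of the 71 passed the filter on low counts, and the filter kept genes that were high in any group. EEF1G, a subunit of the EEF1B complex, had 0 counts in every library, and 99.9% of its exon bases are shared with another gene on the same strand, and counting of this kind assigns a read in shared bases to neither gene. The readthrough genes EEF1AKMT4-ECE2 and EEF1E1-BLOC1S5, with 100% of their exon bases shared, also had 0. EIF4A1, a helicase of the cap complex, had 3.54 to 6.35 CPM in complete smoke against 4.97 to 7.2 CPM in clean air in BEAS-2B cells, with 48.6% of its exon bases shared and 13 named pseudogenes. EIF3C had 19.7, 22.4 and 20.5 CPM in complete smoke against 18.1, 19.9 and 16.8 CPM in clean air in BEAS-2B cells. Its near copy EIF3CL had at most 16 counts in a library, and since reads that map to several places are left out, the level of both genes is uncertain. EIF4E1B and EIF4EBP3 were not tested in either line, EIF3CL not in A549, and EEF1A2 and EIF2S3B not in BEAS-2B cells.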

How the data were processed

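The deposited files hold whole-number counts of reads per gene for 18 libraries, which the authors made with STAR 2.7.10b on GRCh38, per the submitters' processing notes; the annotation used is not given in the sources used here. RNA was taken with Trizol and libraries with a TruSeq mRNA kit, per the labels. The column counting the strand that held 11.7 to 17.1 times the reads of the other was used, without the 4 summary lines of each file. Groups came from the labels. Positions, exon lengths and gene types came from GENCODE v29 (58225 IDs matched), start sequences from RefSeq.

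Genes passing filterByExpr were tested with edgeR 4.0.16 (glmQLFit, robust; TMM) in R 4.3.3, in the 9 libraries of a line, or in all 18 for the lines and interactions (BEAS-2B minus A549). SEs derive from the test statistic. CPM uses TMM factors of all 18. The biological coefficient of variation was 0.299 in BEAS-2B and 0.209 in A549 cells. On simulated counts for complete smoke, 4-fold changes were recovered at 73.5% (15806 genes, BEAS-2B) and 91.8% (15001 genes, A549), and 2-fold changes at 6.2% and 46.5%. The simulation changed 96 genes by 2-fold and 98 by 4-fold in BEAS-2B cells, and 99 and 97 in A549 cells. In the data 41 and 32.5% of tested genes passed. The adjusted cutoff is stricter where few genes change, so these shares do not give the recovery in the data. Alternatives used DESeq2 1.42.0, limma 3.58.1, mgcv 1.9.3 offsets, a replicate block and left-out libraries; tables and figures used Python 3.11.15. Same-numbered libraries deviated together in A549 cells (r from 0.22 to 0.80 in every pair) and between filtered smoke and clean air in BEAS-2B cells (0.16 to 0.58). The numbers were therefore taken to pair them there. For complete smoke and clean air in BEAS-2B cells 1 pair had -0.13. The labels state no pairing, and some libraries with different numbers deviated together too. Clean air library 2 and filtered smoke library 3 of BEAS-2B cells had 0.43, where clean air library 2 and filtered smoke library 2 had 0.16. Filtered smoke library 1 and complete smoke library 2 of A549 cells had 0.34.

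The factors, partner genes, markers and tests were chosen with earlier results of these data known. Named were fixed factors, the 5 highest and 5 lowest that passed against clean air, the 8 largest in other comparisons and up to 6 partners in each; other factors named were picked after their values were seen, to account for a group. The level of EIF1AY is not given.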

Additional observations from a re-analysis of the deposited data

How the results depend on the processing

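Settings are given as factors higher and lower. Apart from library size alone, the calls over all genes in these settings are not given. Whether the factors differ from other genes in any of them was not tested. Library size alone, chosen after seeing the data, gave 18 and 7 in complete smoke in A549 cells, 14 and 14 in complete and 15 and 15 in filtered smoke in BEAS-2B cells, and 8 and 2 lower in the interactions with complete and filtered smoke. Offsets for GC, length and span, also chosen after seeing the data, gave 18 higher in complete smoke in A549 cells, 4 lower in complete smoke in BEAS-2B cells, and 2 and 1 higher in the interactions. GC and length offsets alone gave 3 lower in complete smoke in A549 cells, and 3 and 1 higher in the interactions. Upper-quartile scaling gave 3 lower in complete smoke in A549 cells. The fit of 18 libraries gave 14 and 2 in complete and 22 higher in filtered smoke in A549 cells. Without a low-count filter, the interaction with complete smoke had 1 and 1, and with DESeq2 2 and 1; with DESeq2 1 was lower for filtered smoke.

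The replicate block gave 10 lower in complete and 11 lower in filtered smoke in A549 cells, 11 lower in filtered smoke in BEAS-2B cells, 17 and 7 in the interaction with complete smoke and 14 and 2 in that with filtered smoke. With offsets as well, the block gave 41 higher in filtered smoke in BEAS-2B cells, 18 and 6, and 20 and 2. In BEAS-2B cells in complete smoke, where the numbers share only a number, it gave 37 and 10.

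Leaving out 1 library gave 14 to 35 higher and 4 to 10 lower in complete smoke and 13 to 34 and 4 to 9 in filtered smoke in BEAS-2B cells, with the fewest without clean air library 2 or 3. In A549 cells it gave 3 to 36 and 0 to 6 in complete and 19 to 36 and 5 to 11 in filtered smoke. The interaction with complete smoke had 0 to 2 and 0 to 1, that with filtered smoke 0 and 0, and the lines in clean air 25 to 34 and 7 to 8. Without BEAS-2B clean air library 1 and complete smoke library 3 it was 12 lower in complete and 11 lower in filtered smoke, and 17 and 6, and 2 higher, in the interactions.

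Of 2278 values for 124 results on named genes, 1967 kept direction and call, 297 kept direction alone and 14 turned. EIF2AK4 in A549 cells turned to 0.10 and 0.12 with GC and length offsets, 0.10 and 0.13 with the block added and 0.16 and 0.18 with span. In filtered smoke in A549 cells EIF4EBP1 turned to -0.25, -0.25 (a passing fall, edgeR adjusted p = 0.0304) and -0.19 and DOHH to -0.06, -0.05 and -0.09. EIF2B5 and EIF2S1 in filtered smoke in BEAS-2B cells turned to -0.00 with library size alone. The causes were not tested. Groups of 3 libraries and reads lost to copies limit these results. How often a 2-fold change was missed is not known from the simulation, which changed few genes.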

Other observations

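The non-coding gene IDs that share an EIF or EEF symbol numbered 162, of which 58 to 80 had any count in a library. The 49 named pseudogenes of EEF1A1 together held 0.307 to 0.451% of the counts of EEF1A1 in BEAS-2B libraries and 0.901 to 0.999% in A549 libraries, where uniquely assigned reads alone are counted. The pseudogene EEF1A1P5 averaged 28.9 ± 2.0 CPM in complete smoke, 30 ± 6.17 CPM in filtered smoke and 18.4 ± 0.63 CPM in clean air in BEAS-2B cells, and 12.9 ± 1.78, 13.2 ± 0.49 and 8.98 ± 0.308 CPM in A549 cells (SD, n = 3). EEF1B2P3 averaged 10.5 ± 3.62 CPM in complete and 9.8 ± 1.7 CPM in filtered smoke, against 4.03 ± 2.67 CPM in clean air in BEAS-2B cells. How many of these reads came from the parent genes was not tested.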
